A study of Homo sapiens with 2 samples.

Results

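The 37 genes described here encode the isoenzymes of glycolysis, the transporters that bring glucose into the cell and carry lactate across its membrane, and the enzymes and carriers that pass pyruvate to mitochondria. They were taken by gene name from a list in pathway order, and all 37 were found among the 58735 gene rows of the deposited count table. The series addressed how dihydroartemisinin (DHA), the active metabolite of the artemisinin antimalarials, acts in pancreatic cancer. RNA-seq was done on DHA-treated cells and on untreated cells (label NC) of SUIT-2, a human pancreatic adenocarcinoma line used here as a derivative with high metastatic potential. There was 1 library per group, so no difference below has a replicate check and no p-value can be given. Neither a dose nor a duration of treatment is stated in the labels, nor whether NC cells received a vehicle. In bulk RNA, fewer cells of a type and less RNA per cell cannot be told apart.

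Glycolysis splits glucose into pyruvate in the cytosol. Most of its steps can be carried out by several isoenzymes, encoded by separate genes that differ in tissue, in affinity and in control. Tumour cells commonly take up much glucose and release lactate, and low oxygen raises many of these genes through hypoxia-inducible factor (HIF). Pyruvate is either reduced to lactate by lactate dehydrogenase or carried into mitochondria, where pyruvate dehydrogenase turns it into acetyl-CoA. The pyruvate dehydrogenase kinases switch that complex off and its phosphatases switch it on.

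The promoters of 5 of these genes are shown as examples from steps described below. They include the members with the highest ratio (HK2) and the lowest (FBP1). HK2, ENO2 and PFKFB4 stood more than 2-fold above their NC values, FBP1 was among the lower genes, and LDHA, a classic HIF target, was below its NC level without being called. Each sequence is the 250 bases before the transcription start (RefSeq, GRCh38.p14), read 5′ to 3′ on the gene's strand. Capitals mark the motifs ACGTG and GCGTG, both cores of the HIF binding site, on either strand (CACGT and CACGC on the other). In CACGTG both strands match. GENCODE places an earlier start of HK2 and LDHA within the window, so part of it can be transcribed. For ENO2, PFKFB4 and FBP1 an earlier start lies before the window, so all of it can be.
HK2 (chr2:74833877-74834126, plus strand): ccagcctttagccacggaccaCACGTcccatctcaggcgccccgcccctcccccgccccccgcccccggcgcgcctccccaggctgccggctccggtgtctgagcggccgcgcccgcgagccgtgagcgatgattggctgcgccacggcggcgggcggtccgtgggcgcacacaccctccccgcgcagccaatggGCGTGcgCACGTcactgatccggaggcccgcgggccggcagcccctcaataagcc
ENO2 (chr12:6914330-6914579, plus strand): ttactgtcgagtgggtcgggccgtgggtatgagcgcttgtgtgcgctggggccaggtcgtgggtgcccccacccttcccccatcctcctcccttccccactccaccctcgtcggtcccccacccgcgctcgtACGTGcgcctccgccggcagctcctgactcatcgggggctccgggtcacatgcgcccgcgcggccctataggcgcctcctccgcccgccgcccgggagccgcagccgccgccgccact
PFKFB4 (chr3:48556804-48557053, minus strand): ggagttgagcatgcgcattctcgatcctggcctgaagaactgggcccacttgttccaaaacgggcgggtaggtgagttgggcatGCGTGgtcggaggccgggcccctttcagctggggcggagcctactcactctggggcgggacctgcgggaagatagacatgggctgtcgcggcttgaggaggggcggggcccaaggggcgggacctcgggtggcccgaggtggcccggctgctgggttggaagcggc
LDHA (chr11:18394313-18394562, plus strand): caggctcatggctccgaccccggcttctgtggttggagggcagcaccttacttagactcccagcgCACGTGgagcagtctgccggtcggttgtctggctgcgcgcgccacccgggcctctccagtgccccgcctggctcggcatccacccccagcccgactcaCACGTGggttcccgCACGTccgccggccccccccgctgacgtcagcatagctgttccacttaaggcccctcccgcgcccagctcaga
FBP1 (chr9:94639519-94639768, minus strand): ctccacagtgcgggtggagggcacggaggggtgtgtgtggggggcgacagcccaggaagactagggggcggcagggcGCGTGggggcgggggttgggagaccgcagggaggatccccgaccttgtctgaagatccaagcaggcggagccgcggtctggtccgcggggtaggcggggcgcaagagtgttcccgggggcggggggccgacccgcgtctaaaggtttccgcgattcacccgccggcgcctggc
Of the 37 genes, 33 had such a window. For a member with several windows, only the one nearest its principal GENCODE start was used. The start of the window used lay up to 1658 bases from the principal one (PGAM1), with 1337 for GAPDH and 731 for FBP1. The shares over all windows below count every window of a gene, so the 2 are not fully alike. ACGTG on either strand was found in 14 of the 33 member windows (42.4%), in 18.5% of all 35116 windows in the RefSeq table and in 22.6% of the 13521 windows whose gene had 50 or more reads in either library. GCGTG was found in 14 member windows (42.4%), in 32.2% of all windows and in 44.1% of those 13521. By call, ACGTG was found in 3 of 4 windows of higher genes, 1 of 4 of lower genes and 10 of 25 of the others. GCGTG was found in 2 of 4, 2 of 4 and 10 of 25 of the same windows, and CACGTG in 0 of 4, 1 of 4 and 5 of 25. The higher genes here include ALDOA, whose window held ACGTG, and the lower genes LDHB, whose window held none of these motifs. The read counts of both, and so their calls, are uncertain for reasons given below. LDHA held 2 copies of CACGTG, and these overlap its ACGTG matches. Such matches describe letters in a window and are not evidence of binding.

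The DHA library held 14521101 counted reads and the NC library 15452609. Both libraries had keratin reads, with 1977 reads of KRT19 in the DHA and 6515 in the NC library. Over 9 ductal and epithelial markers, the sum was 1382 CPM (scaled counts-per-million) in the DHA and 3437 CPM in the NC library. By the rule given below, 7 of the 9 had enough reads, 6 were called lower and 0 higher, and KRT17 had 0 reads in both. Over all genes with enough reads, 10.3% were called lower. The part of this difference in the results below was not tested. The extraction protocol in the labels names retina as the source, but GNAT1, CRX and RCVRN had 0 reads in both libraries, and all 13 retina markers together had 140 reads in the DHA and 193 in the NC library. Most of these were reads of RPE65 (74 in the DHA and 96 in the NC library) and OPN1SW (49 and 61). Markers of acinar cells (10 and 2 reads in the DHA and NC libraries) and of leukocytes (3 and 7) were near 0. Fibroblast markers had 14 reads in the DHA and 130 in the NC library, mostly COL1A1, and endothelial markers 57 and 281, nearly all PECAM1. COL1A1 and PECAM1 were called lower. DCN and COL1A2 had 0 reads in both. Transcripts of the mitochondrial genome made up 6.44% of the DHA and 8.57% of the NC library.

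The 37 genes together took 244513 reads in the DHA library, 1.68% of its total (95% Clopper-Pearson interval 1.68 to 1.69), and 282427 reads in the NC library, 1.83% (1.82 to 1.83). Ratios are DHA over NC after TMM scaling (trimmed mean of M values), with 0.5 reads added to both counts. To be called higher or lower, a gene needed 50 or more reads in either library, a difference of 2-fold or more, and a 95% counting interval without 1. Of the 37 genes, 36 passed the read minimum. Among these, 5 were called higher, SLC2A3, HK2, PFKFB4, ALDOA and ENO2, where 6.72% of all 12064 genes with enough reads were called higher. Another 4 were called lower, FBP1, LDHB, PDK2 and PDK4, where the share over all genes was 10.3%. The read counts of ALDOA and LDHB are uncertain for a reason given with each gene below. The members' share of calls was thus near that of all genes on the lower side (4 of 36). It was above that share on the higher side (5 of 36), a gap that rests on few genes and was not tested. Members were also chosen with earlier results of these data known. The median log2 ratio of the 36 genes was 0.04, and that of all 12064 genes was 0.04.

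**Figure D1:**
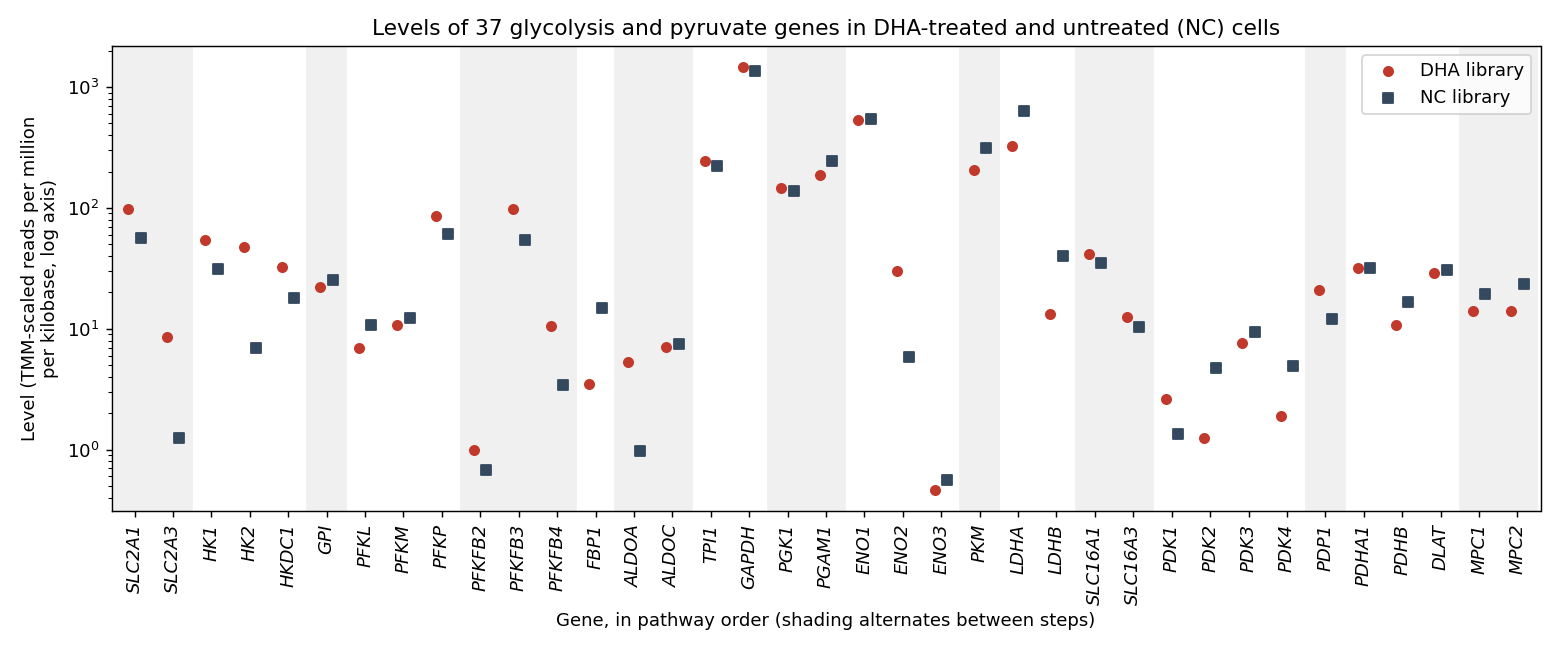
Level of each of the 37 genes (TMM-scaled CPM per kilobase of gene length, log axis) in the DHA library (red circles, left) and the NC library (dark squares, right), 1 library each, with genes in pathway order. GAPDH is the highest in both libraries, at 1463 in the DHA and 1369 in the NC library, and HK2, ENO2, SLC2A3 and PFKFB4 lie well above their NC squares.

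The calls are given next by position in the pathway, with FBP1 taken by itself, beside shares over all genes of 6.72% higher and 10.3% lower. Of all 12064 genes with enough reads, 6299 had a log2 ratio above 0. Of the 12 genes from glucose uptake through phosphofructokinase and its control, 3 were called higher and 0 lower, with 9 of 12 log2 ratios above 0 and a median of 0.80. Of the 10 genes from aldolase to pyruvate kinase, 9 passed the read minimum, with 2 called higher, 0 lower, 5 ratios above 0 and a median of 0.07. The called genes were ENO2 and ALDOA, whose counts are uncertain. Of the 4 lactate genes, 0 were called higher and 1 lower, with 2 ratios above 0, 2 below and a median of -0.35. The called gene was LDHB, whose counts are uncertain too. Of the 10 genes of pyruvate entry into mitochondria, 0 were called higher and 2 lower, and 7 had ratios below 0, with a median of -0.38. PDHA1, at 0.01, was also below 0 with DESeq2 size factors or upper-quartile scaling. This grouping was made with the values known, so it describes them and tests nothing.

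Glucose enters through facilitative transporters. SLC2A1, which encodes GLUT1, the widespread transporter, had 6754 reads in the DHA and 4064 in the NC library. Its level, in scaled CPM per kilobase of gene length, was 98.1 in the DHA and 55.9 in the NC library, a log2 ratio of 0.81 that stays under 2-fold. SLC2A3 encodes the high-affinity GLUT3 (ENSG00000059804, chromosome 12, 7919230 to 7936275, minus strand, GRCh38). It had 772 reads in the DHA library and 119 in the NC library. It was 6.83-fold higher (95% counting interval 5.64 to 8.38). SLC2A14, a near-identical copy beside it, had 0 reads in both libraries, and how reads matching both genes were assigned is not stated. SLC2A1 remained the higher of the pair in RNA, since SLC2A3 gave 8.06% of the summed level of the pair in the DHA and 2.20% in the NC library. The ratio of SLC2A3 to SLC2A1 reads was 3.89-fold higher in the DHA library (3.20 to 4.79), a comparison within each library that does not depend on scaling.

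Hexokinase traps glucose as glucose 6-phosphate. HK2, the inducible isoenzyme prominent in tumours (ENSG00000159399, chromosome 2, 74833981 to 74893359, plus strand), had 4216 reads in the DHA and 642 in the NC library and was 6.93-fold higher (6.38 to 7.55). This was the highest ratio of the 36 genes. The widely expressed HK1 had 4996 reads in the DHA and 3042 in the NC library, and HKDC1, a hexokinase domain protein encoded next to HK1, had 2026 and 1184. Their log2 ratios of 0.79 and 0.85 did not reach 2-fold. All 3 genes thus read above their NC counts, and the summed hexokinase level was 134.8 in the DHA and 56.3 in the NC library. HK2 took 37.5% of hexokinase reads in the DHA library (36.6 to 38.4) and 13.2% in the NC library (12.2 to 14.2). Per length, HK1 was the highest of the 3 in both libraries, at 54.4 in the DHA and 31.4 in the NC library, with HK2 at 47.7 and 6.88. The ratio of HK2 to HK1 reads was 3.996-fold higher in the DHA library (3.64 to 4.40), while that of HKDC1 to HK1 differed by a log2 value of only 0.06, with an interval from -0.06 to 0.18.

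GPI, which interconverts glucose 6-phosphate and fructose 6-phosphate, had 3444 reads in the DHA and 4177 in the NC library, a log2 ratio of -0.20. Phosphofructokinase is the main control point of the pathway. Its platelet-type subunit gene PFKP had 6009 reads in the DHA and 4545 in the NC library (log2 ratio 0.48), against 904 and 1472 for the liver type PFKL (-0.62) and 1146 and 1372 for the muscle type PFKM (-0.18). PFKP had the highest RNA level of these subunit genes in both libraries, with 82.8% of the summed level in the DHA and 72.7% in the NC library. No single subunit passed 2-fold, but the ratio of PFKL to PFKP reads was 2.15-fold lower in the DHA library (1.96 to 2.36) and that of PFKM to PFKP was 1.58-fold lower (1.45 to 1.73).

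The bifunctional PFKFB enzymes set the amount of fructose 2,6-bisphosphate, the strongest activator of phosphofructokinase. PFKFB4 (ENSG00000114268, chromosome 3, 48517684 to 48562015, minus strand) was counted at 942 reads in the DHA and 321 in the NC library and was 3.10-fold higher (2.73 to 3.53). PFKFB3, the isoenzyme with the highest kinase activity relative to its phosphatase, had 8707 reads in the DHA and 5074 in the NC library, a log2 ratio of 0.86. It gave 89.4% of the summed PFKFB level in the DHA and 92.9% in the NC library. PFKFB2, the heart-type isoenzyme, had 149 reads in the DHA and 107 in the NC library, with a log2 ratio of 0.55. All 3 read above their NC counts, and the summed level was 109.3 in the DHA and 58.0 in the NC library.

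FBP1 catalyses the reverse reaction of phosphofructokinase in gluconeogenesis. FBP1 (ENSG00000165140, chromosome 9, 94603133 to 94640249, minus strand) was counted at 89 reads in the DHA and 397 in the NC library and was 4.21-fold lower (3.35 to 5.38). It had the lowest ratio of the 36 genes. An antisense gene, PCAT7, covers 16.3% of its exon length and had 29 reads in the DHA and 41 in the NC library. At this step PFKP and the PFKFB genes thus lay above the NC library, and PFKL, PFKM and FBP1 below it.

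**Figure D2:**
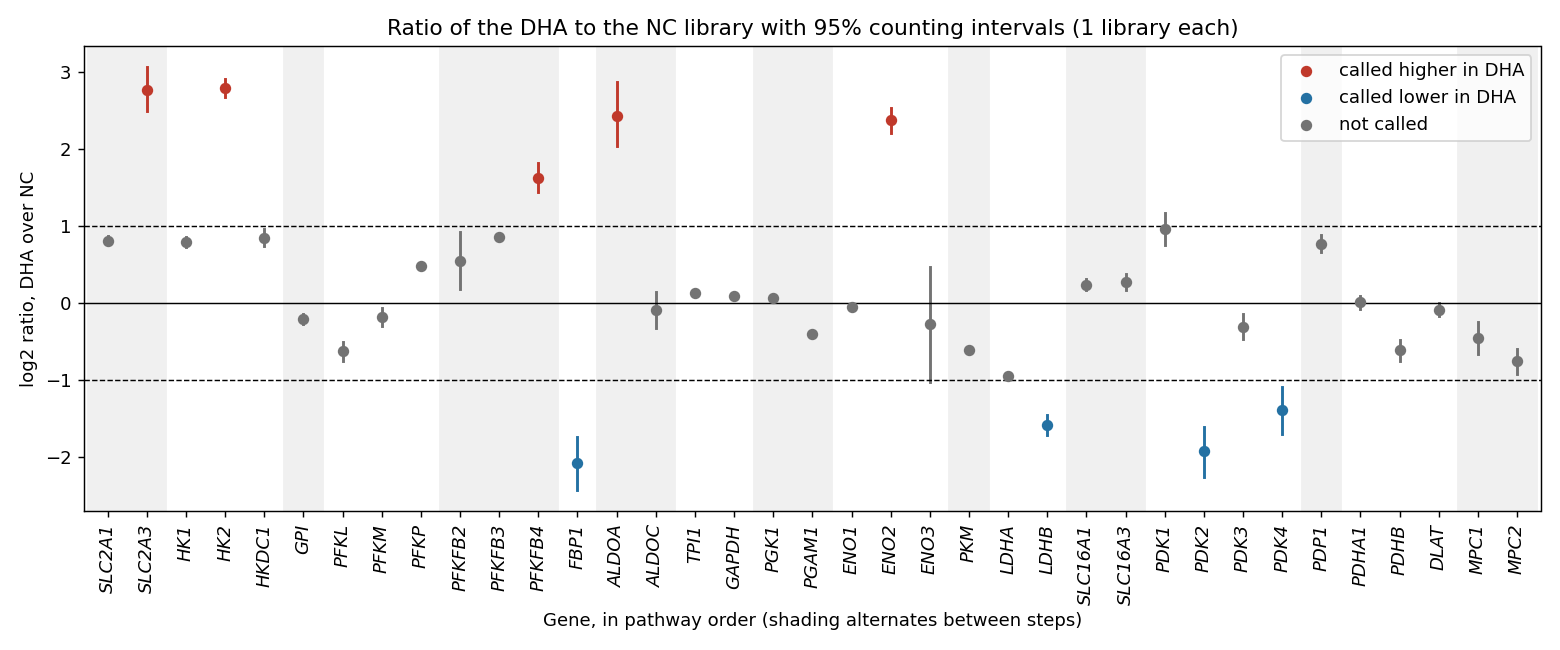
log2 ratio of the DHA to the NC library for each gene in pathway order, with 95% counting intervals as vertical lines and dashed lines at 2-fold. Red points mark the 5 genes called higher, blue the 4 called lower and grey the 27 not called and ENO3, which had too few reads for a call.

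Aldolase splits fructose 1,6-bisphosphate. ALDOA, usually the abundant isoenzyme, had only 304 reads in the DHA and 59 in the NC library and was 5.40-fold higher (4.11 to 7.32). Of its coding bases, 93.8% lie within exons of AC093512.2, an annotated gene on the same strand that had 27 reads in the DHA and 40 in the NC library. The labels do not say how reads shared by both genes were counted, so neither the level nor the ratio of ALDOA can be taken as that of the enzyme's transcript. Over both genes together, 331 reads in the DHA and 99 in the NC library gave a ratio of 3.52 (2.81 to 4.47). ALDOC, the brain-type isoenzyme, had 300 reads in the DHA and 337 in the NC library, a log2 ratio of -0.09. Without ALDOA, 4 of 35 genes were called higher and the median log2 ratio was 0.01.

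The abundant enzymes of the triose steps differed little. GAPDH had 63550 reads in the DHA and 62814 in the NC library (log2 ratio 0.10), the triose isomerase gene TPI1 had 9594 and 9213 (0.14), and the phosphoglycerate kinase gene PGK1, the first ATP-making step, had 11714 and 11776 (0.07). The mutase gene PGAM1 had 6982 reads in the DHA and 9714 in the NC library, a log2 ratio of -0.40. GAPDH, often used as a loading control, had a counting interval of 1.06 to 1.08 for its ratio, and variation between cultures was not measured. Annotated pseudogenes named after GAPDH took 308 reads in the DHA and 362 in the NC library, and those named after TPI1 took 109 and 59. For the other members, such pseudogenes held at most 26 reads in a library.

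Enolase makes phosphoenolpyruvate. The ubiquitous ENO1 had 40734 reads in the DHA and 44480 in the NC library, a log2 ratio of -0.05. ENO2, the neuron-specific enolase (ENSG00000111674, chromosome 12, 6913745 to 6923698, plus strand), had 1887 reads in the DHA and 384 in the NC library and was 5.18-fold higher (4.65 to 5.81). The ratio of ENO2 to ENO1 reads was 5.36-fold higher in the DHA library (4.80 to 6.01). ENO2 nonetheless gave 5.40% of the summed enolase level in the DHA and 1.05% in the NC library, and the summed level was 560.4 in the DHA and 554.03 in the NC library. The muscle enolase gene ENO3, with 29 reads in the DHA and 37 in the NC library, was the only member below 50 reads in both. The pyruvate kinase gene PKM had 25487 reads in the DHA and 41034 in the NC library, a log2 ratio of -0.61. The counts are per gene and do not separate its splice forms.

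Lactate dehydrogenase interconverts pyruvate and lactate. LDHA, whose subunit favours lactate formation, had 29581 reads in the DHA and 60042 in the NC library, a log2 ratio of -0.94 (95% counting interval -0.96 to -0.92) that lay just short of 2-fold. It passed 2-fold lower with upper-quartile scaling, at -1.01. Its level was 327 in the DHA and 628 in the NC library. LDHB, whose subunit is typical of oxidative tissues, had 581 reads in the DHA and 1836 in the NC library and was 2.99-fold lower (2.72 to 3.29). Of its coding bases, 93.5% lie within exons of AC010197.2, a gene on the same strand with 0 reads in both libraries, so the LDHB level may miss reads shared by both and its ratio is uncertain in the same way as that of ALDOA. The summed level of both genes was 340.2 in the DHA and 668.05 in the NC library. The ratio of LDHA to LDHB reads was 1.56-fold higher in the DHA library (1.42 to 1.71).

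Lactate leaves or enters through monocarboxylate transporters. SLC16A1, which encodes MCT1, had 3208 reads in the DHA and 2865 in the NC library, and SLC16A3, which encodes the exporter MCT4, had 1651 and 1436. Their log2 ratios were 0.24 and 0.28. The ratio of SLC16A3 to SLC16A1 reads differed by 0.04 on the log2 scale, with an interval from -0.09 to 0.16. BSG, the chaperone that carries both transporters to the membrane, had 7120 reads in the DHA and 5915 in the NC library, a log2 ratio of 0.35.

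**Figure D3:**
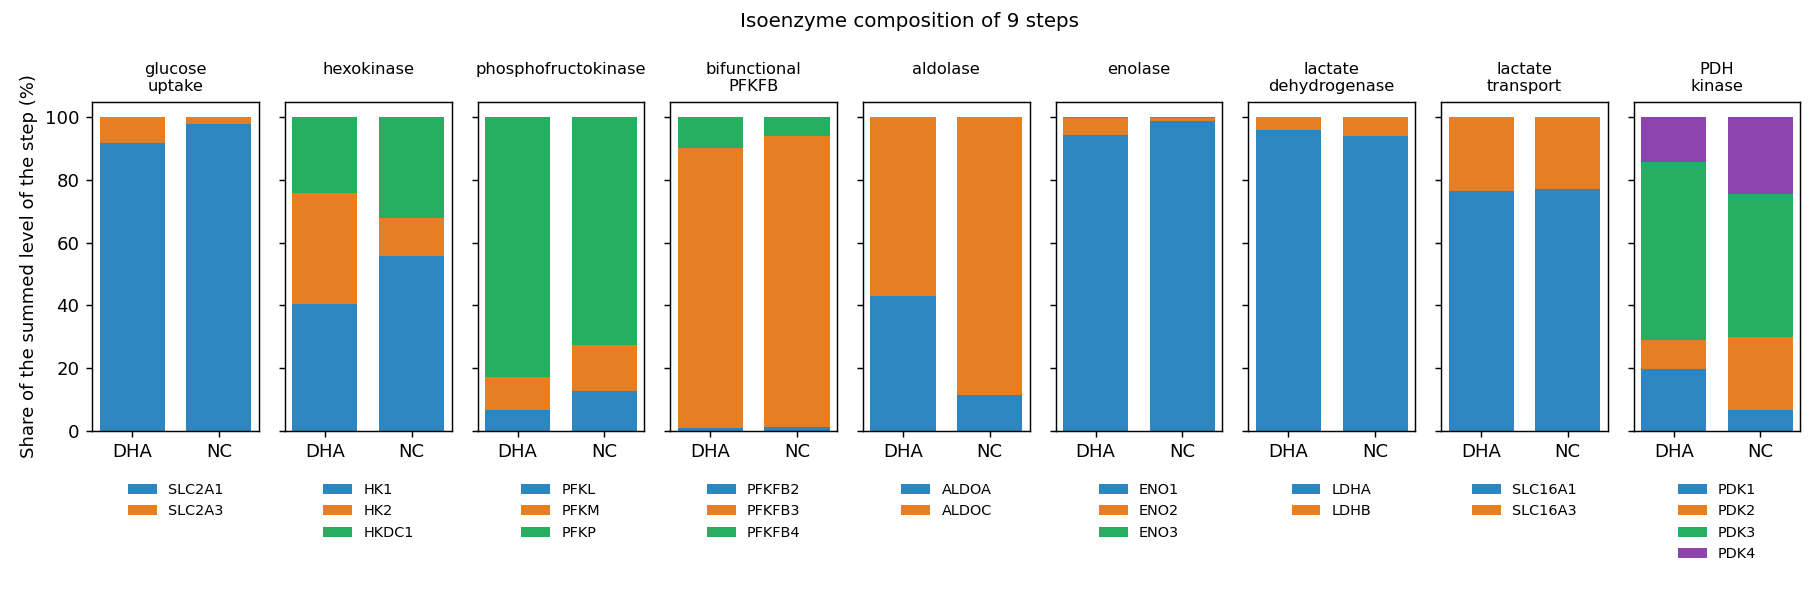
Share of each isoenzyme in the summed level of its step (percent, per gene length) for 9 steps, with the DHA library on the left and the NC library on the right of each panel. HK2 takes 35.4% of hexokinase in the DHA and 12.2% in the NC library, and PDK1 takes 19.8% and 6.64% of the pyruvate dehydrogenase kinases, while ENO1, LDHA, SLC2A1 and PFKFB3 stay the main gene of their step in both libraries.

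The 4 genes for pyruvate dehydrogenase kinases differed in direction. PDK1, a kinase known to be induced by HIF, had 572 reads in the DHA and 310 in the NC library, a log2 ratio of 0.96 that did not reach 2-fold. PDK2, the widespread isoenzyme (ENSG00000005882, chromosome 17, 50094737 to 50112152, plus strand), had 99 reads in the DHA and 398 in the NC library and was 3.79-fold lower (3.05 to 4.79). SAMD14, on the opposite strand, covers 38.6% of its exon length and 4.50% of its coding bases and had 8 reads in the DHA and 14 in the NC library. PDK4, induced by fasting and by fatty acids in many tissues (ENSG00000004799, chromosome 7, 95583499 to 95596491, minus strand), was counted at 124 reads in the DHA and 344 in the NC library and was 2.62-fold lower (2.13 to 3.25). PDK3 had 546 reads in the DHA and 713 in the NC library, a log2 ratio of -0.31. Relative to PDK3 reads, PDK1 was 2.41-fold higher in the DHA library (2.01 to 2.89), PDK2 was 3.07-fold lower (2.39 to 3.98) and PDK4 was 2.12-fold lower (1.67 to 2.71). PDK3 was the highest of the 4 per length in both libraries, at 7.57 in the DHA and 9.35 in the NC library, and the summed kinase level was 13.3 in the DHA and 20.4 in the NC library.

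PDP1, the phosphatase that reactivates the complex, had 1697 reads in the DHA and 1049 in the NC library, a log2 ratio of 0.77. The ratio of PDK1 to PDP1 reads differed by 0.19 on the log2 scale, with an interval from -0.04 to 0.42 that includes 0. Among the subunits of the complex, PDHA1 had 2099 reads in the DHA and 2197 in the NC library (log2 ratio 0.01), DLAT had 2036 and 2280 (-0.08) and PDHB had 744 and 1202 (-0.61). The ratio of PDHB to PDHA1 reads was 1.54-fold lower in the DHA library (1.38 to 1.72), although both encode parts of the same E1 enzyme. The mitochondrial pyruvate carrier is made of MPC1 and MPC2. MPC1 had 319 reads in the DHA and 462 in the NC library (-0.45), and MPC2 had 521 and 929 (-0.76), so both subunits read below the NC library without passing 2-fold. Genes on the opposite strand, MAP3K15 and DCAF6, cover 21.3% of the exon length of PDHA1 and 22.5% of that of MPC2.

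**Figure D4:**
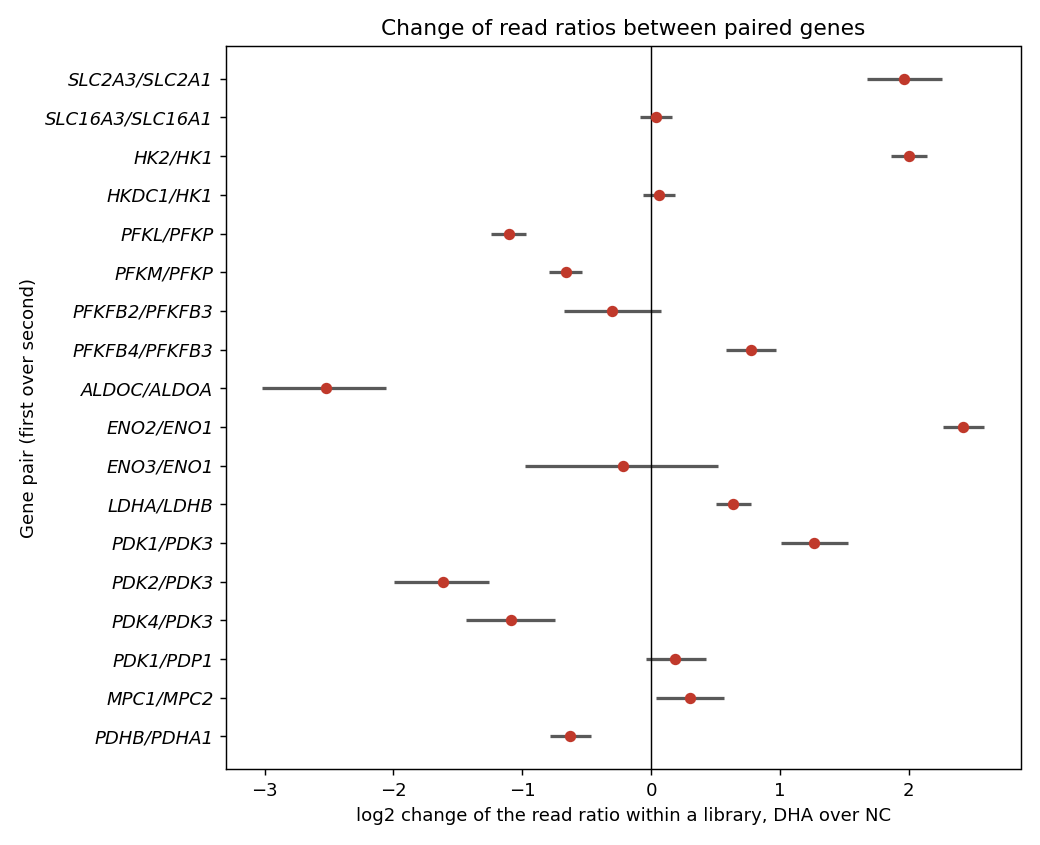
Change between the DHA and the NC library in the ratio of reads of 2 genes within a library, for 18 pairs, on the log2 scale with 95% counting intervals as horizontal lines. The intervals of 7 pairs lie above 0, those of 6 lie below and those of 5 include 0. ENO2/ENO1, HK2/HK1 and SLC2A3/SLC2A1 lie farthest to the right. ALDOC/ALDOA, farthest to the left, rests on the uncertain ALDOA counts.

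Across the 9 steps with several isoenzymes, the gene with the highest level per length was the same in both libraries in all 9. None of these 9 leading genes was called, with log2 ratios from -0.94 for LDHA to 0.86 for PFKFB3. Of the 15 other isoenzymes, 8 were called, with log2 ratios from -1.92 for PDK2 to 2.79 for HK2, and ENO3 had too few reads for a call. Over all genes 6.72% were called higher and 10.3% lower. Beside those shares 0 of 9 is near what they give, while 8 of 15 lies above it. This split was noticed after the values were seen and was not tested. ALDOA and LDHB, whose counts are uncertain, are 2 of these 8, so ALDOC as the leading aldolase is uncertain too. The leading genes also had more reads than the others of their step, except ALDOC and PDK3 in the DHA library. The lead of those genes there thus depends on the deposited gene lengths (union of exons). These were 14883 bases for PDK1 and 4951 for PDK3. Among the 29 members with 500 or more reads in either library, 4 were called higher and 1 lower, where 6.58% and 5.79% of the 6551 such genes were called. In 13 of the 18 gene pairs, the interval of the ratio change excluded 0. The pairs were isoenzymes, subunits of 1 complex, or the kinase PDK1 with the phosphatase PDP1. The change was 2-fold or more upward in 4 pairs and downward in 4. The largest, -2.52 (log2) for ALDOC/ALDOA, rests on the uncertain ALDOA counts, and LDHA/LDHB, also among the 13, on those of LDHB. Other gene pairs were not compared, so the 13 have no share beside them. At these depths small changes can also exclude 0, such as 0.30 for MPC1/MPC2.

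Genes of the same pathways outside the 37 were counted by the same rule, and the shares over all genes were 6.72% higher and 10.3% lower. Of 13 other sugar transporters, 5 had enough reads, with 0 called higher and 2 lower, SLC2A10 (164 reads in the DHA and 401 in the NC library) and SLC2A11 (54 and 123), and SLC2A6 had a log2 ratio of -0.82. Of 12 other monocarboxylate transporters and chaperones, 9 had enough reads, with 0 called higher and 3 lower, beside 10.3% lower over all genes, among them SLC16A5, 2.57-fold, and SLC16A7, which encodes MCT2, 2.34-fold. Of 17 tissue-restricted or minor isoenzymes, among them the testis dehydrogenase LDHC, 2 had enough reads. The bisphosphoglycerate mutase gene BPGM was called higher, with 399 reads in the DHA and 207 in the NC library, and the ADP-dependent glucokinase gene ADPGK had a log2 ratio of -0.05.

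Of 6 further genes of pyruvate dehydrogenase and pyruvate carboxylase, 5 had enough reads and none was called. PC, DLD and PDP2 had log2 ratios of -0.59, -0.42 and 0.16. Of 21 genes of gluconeogenesis and glycogen, 17 had enough reads, with 0 called higher and 1 lower, the glucose 6-phosphate transporter gene SLC37A4, 2.84-fold, and a median log2 ratio of -0.01. The glycogen branching enzyme gene GBE1 and the phosphorylase gene PYGB had log2 ratios of 0.92 and -0.73. Of 22 regulators of glucose metabolism, 18 had enough reads, with 5 called higher and 1 lower, beside 6.72% and 10.3% over all genes, and a median of 0.32. ARRDC4, an arrestin-like gene induced by glucose through MLX factors, was 4.49-fold higher (3.16 to 6.68), and GCKR, which encodes a regulator of hexose phosphorylation in liver, was 2.89-fold higher (2.17 to 3.93). HIF1A had 2238 reads in the DHA and 2332 in the NC library (log2 ratio 0.02) and EPAS1, which encodes HIF-2 alpha, had 2027 and 945 and was 2.26-fold higher (2.10 to 2.45). The other 2 called higher were the forkhead factor gene FOXO3, 2.11-fold, and the deacylase gene SIRT6, 2.07-fold.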

How the data were processed

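The table deposited by the authors gives unnormalized whole-number counts of reads for each gene in 1 DHA-treated and 1 untreated (NC) library, with other columns that give gene lengths in bases. Groups come from the treatment labels. Per the labels' protocols, total RNA was isolated with Trizol before Illumina library preparation. The same text names retina, and mouse build mm8 appears in the submitters' processing notes. The tissue conflicts with the cell line label, and the build with the human identifiers in the deposited table. All 58735 rows matched the identifier, coordinates and length (union of exons) of GENCODE release 29 on GRCh38. The aligner, the counting tool and its handling of strand and of shared or multiply mapped reads are, beyond this, not given in the sources used here.

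Scaling was TMM (edgeR 4.0.16, R 4.3.3). Intervals are exact Clopper-Pearson intervals on the DHA part of each gene's summed reads, or exact conditional odds ratio intervals for pairs (scipy 1.17.1). They cover counting error only and take reads as independent. PCR copies are not independent molecules, so the intervals can be too narrow even for that, and p-values need replicates. Their median half-width was 0.11 (log2) for the members. A count of 0 allows up to 3 reads, 0.206 CPM in the DHA and 0.195 CPM in the NC library. Ratio functions were tested on simulated data. All 37 members are named. Of each of 6 context lists (91 genes, all matched by symbol), up to 3 genes with the largest absolute log2 ratio are named, except some that are not reported here. BSG, HIF1A, EPAS1, FOXO3, SIRT6 and SLC2A14 were named after their values were seen, as was LDHC. Members and lists were chosen with earlier results of these data known. Alternatives covered scaling (with DESeq2 1.42.0 size factors), read minimum, reads added, fold, interval width, a trend on length and, added after seeing the data, on GC content, and genes sharing exons.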

Additional observations from a re-analysis of the deposited data

How the results depend on the processing

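No paired analysis was possible because each group has 1 library, and for the same reason no library could be left out. With total reads, DESeq2 size factors or TMM without the mitochondrial genome, with 2 reads added, a wider interval, a minimum of 1 read, or trends on length or on length and GC content removed, 5 genes were called higher and 4 lower. Upper-quartile scaling gave 5 and 5, with LDHA added. A minimum of 500 reads left 29 genes, with 4 higher and 1 lower, since FBP1, PDK2 and PDK4 have fewer reads. At 1.5-fold the counts were 11 higher and 9 lower, and at 3-fold 5 higher and 2 lower, with LDHB and PDK4 lost. The share of all genes called was computed only at 2-fold under the main scaling, with minimums of 50 and 500 reads. Counts under the other settings thus have no such share beside them. Leaving out genes with over 30% of their exon length shared with another gene (chosen after seeing the data) removed ALDOA, LDHB and PDK2 and left 4 higher and 2 lower among 33. The median log2 ratio of the members lay between -0.02 (upper quartile) and 0.10 (minimum of 500 reads), near that of all genes under the same setting (-0.03 and 0.10). Of the 18 ratios between paired genes, 13 had intervals that excluded 0, and 12 with the wider interval, where MPC1/MPC2 was lost. No share for other gene pairs was computed. Depth limits genes with few reads most, the widest half-interval of a member with enough reads being 0.42 (log2), and variation between cultures was not measured.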
